A study of Mus musculus with 26 samples.

Results

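The genes described here encode 10 proteins that make leukotrienes and prostaglandins, the lipid mediators derived from arachidonic acid. They were chosen by name, as Alox5, Alox5ap, Ltc4s, Lta4h, Hpgds, Ptgs1, Ptgs2, Ptges, Tbxas1 and Pla2g4a, and all 10 were found by their Ensembl identifiers among the 52636 genes of the count tables. Their levels were followed in 26 RNA sequencing libraries of 6 groups of mice, wild-type (WT) and Prss57-/- (KO) littermates, where Prss57 encodes the neutrophil serine protease NSP4. Granulocyte-macrophage progenitors (GMPs) and common myeloid progenitors (CMPs) were sorted from the bone marrow of female mice, with 4 libraries per genotype and cell type. Both progenitors lack lineage markers and SCA-1 and carry CD117 and CD34, and they differ in CD16/32, which is high on GMPs and low on CMPs. Bone marrow-derived mast cells (BMMCs) came from male mice, with 5 libraries per genotype, and were grown from sorted GMPs in interleukin-3 and stem cell factor. The BMMC libraries were sequenced in a run of their own. The study had 2 Prss57-/- strains, 1 with exon 2 deleted and 1 with exons 2 and 3 deleted, and its supplement assigns the exon 2 strain to all experiments but those of a figure without RNA sequencing. The labels name neither the strain nor the age of the mice.

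Mast cells store histamine and proteases in granules, but make these lipids on demand when they are activated. Cytosolic phospholipase A2, the product of Pla2g4a, frees arachidonic acid from membranes. In the leukotriene branch, 5-lipoxygenase (Alox5) acts with its helper protein FLAP (Alox5ap) to form leukotriene A4, which is turned either into leukotriene B4 by leukotriene A4 hydrolase (Lta4h) or into leukotriene C4 by leukotriene C4 synthase (Ltc4s). In the prostaglandin branch, the cyclooxygenases Ptgs1 (COX-1, in most cells always present) and Ptgs2 (COX-2, inducible) form prostaglandin H2. From this, haematopoietic prostaglandin D synthase (Hpgds) makes prostaglandin D2, the main prostaglandin of mast cells, while Ptges makes prostaglandin E2 and Tbxas1 makes thromboxane A2. Leukotriene B4 attracts neutrophils, and leukotriene C4 and prostaglandin D2 constrict airways.

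The promoters of Alox5, Ltc4s, Hpgds, Ptgs2 and Lta4h are shown, since the comparisons that follow turn mainly on these members. Each run is taken from RefSeq (GRCm38.p6), reads 5′ to 3′ along the gene and ends upstream of the outermost exon of the gene in GENCODE M21. It lies in the 250 bases before the RefSeq start. Capitals mark matches, on either strand, to GAGGAA (an ETS motif, reverse complement TTCCTC) or GGGCGG (a GC box).
Alox5: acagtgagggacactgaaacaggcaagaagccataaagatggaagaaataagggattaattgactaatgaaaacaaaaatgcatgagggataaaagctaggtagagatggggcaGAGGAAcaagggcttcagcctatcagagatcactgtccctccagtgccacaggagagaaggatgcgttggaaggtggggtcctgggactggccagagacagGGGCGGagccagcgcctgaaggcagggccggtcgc
Ltc4s: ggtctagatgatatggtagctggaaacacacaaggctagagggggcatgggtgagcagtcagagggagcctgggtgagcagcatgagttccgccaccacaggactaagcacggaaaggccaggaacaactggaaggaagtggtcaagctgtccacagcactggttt
Hpgds: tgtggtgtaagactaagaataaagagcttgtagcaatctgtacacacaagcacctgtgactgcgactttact
Ptgs2: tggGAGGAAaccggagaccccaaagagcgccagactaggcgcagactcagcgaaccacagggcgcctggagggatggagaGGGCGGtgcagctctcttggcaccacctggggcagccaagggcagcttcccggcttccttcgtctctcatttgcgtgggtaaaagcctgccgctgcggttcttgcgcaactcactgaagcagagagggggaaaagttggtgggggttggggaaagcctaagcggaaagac
Lta4h: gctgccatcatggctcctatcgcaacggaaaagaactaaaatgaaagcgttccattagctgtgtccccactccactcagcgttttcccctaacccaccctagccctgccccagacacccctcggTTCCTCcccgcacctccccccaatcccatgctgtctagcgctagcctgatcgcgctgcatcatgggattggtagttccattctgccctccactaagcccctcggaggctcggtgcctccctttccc
These runs lie at chr6:116461179-116461428 (reverse strand), chr11:50238617-50238782 (reverse), chr6:65144909-65144980 (reverse), chr1:150099781-150100030 (forward) and chr10:93453146-93453395 (forward). RefSeq promoters were matched for 9 of the 10 members, all but Alox5ap. In the 250 bases before the start, GAGGAA or its complement was found for 7 of the 9 members, against 23.3% of all 32851 promoters in the table. GGGCGG or its complement was found for 3 of the 9 (Alox5, Ptgs2 and Ptges), against 32.7% of all promoters. The GATA motif AGATAA, present in 9.99% of promoters, and the E-box CACGTG, present in 6.02%, were found in none of the 9. The E-box CATGTG was found for Hpgds and Pla2g4a (12.3% of all promoters), and TATAAA for Pla2g4a and Tbxas1 (12.4%). Pla2g4a has 2 RefSeq starts, and both were searched. The Hpgds match to GAGGAA lies outside its printed run, and no motif overlapped another in the printed runs.

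Total counts were between 32078404 and 53264762 reads on genes per progenitor library and between 18627626 and 28647216 per BMMC library. Levels are given as the authors' normalized RPKM, read counts scaled to gene length and to library depth by a size factor, which can be compared between genes. The targeted gene, Prss57, had a mean of 145 ± 35.7 (SD, n = 4) in WT GMPs, 0.132 ± 0.0626 (SD, n = 4) in KO GMPs, 23.2 ± 7.47 (SD, n = 4) in WT CMPs and 1 read per library in KO CMPs. In BMMCs it is no check of the labels, with 2 to 27 reads in WT libraries and 0 in KO libraries. In the WT groups, 8 mast cell markers summed to between 30935 and 46484 normalized RPKM in BMMCs and to between 160 and 641 in progenitors, and 5 markers of granulocyte-macrophage progenitors summed to between 29709 and 37509 in GMPs and to between 3830 and 8044 in CMPs. The BMMC libraries also held macrophage markers, whose 8 genes summed to between 1179 and 1842 normalized RPKM, except in KO BMMC library 3, where they summed to 124. In the same library 5 markers of antigen-presenting dendritic cells summed to 74.5, against 888 to 1920 in the other BMMC libraries, and the mast cell markers to 75378, against 24991 to 46484. KO CMP library 2 also stood apart. Its normalized RPKM summed to 785333 over all genes, against 336085 to 494881 in the other progenitor libraries. Calls of members that changed without either library are stated where they are given.

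**Figure D1:**
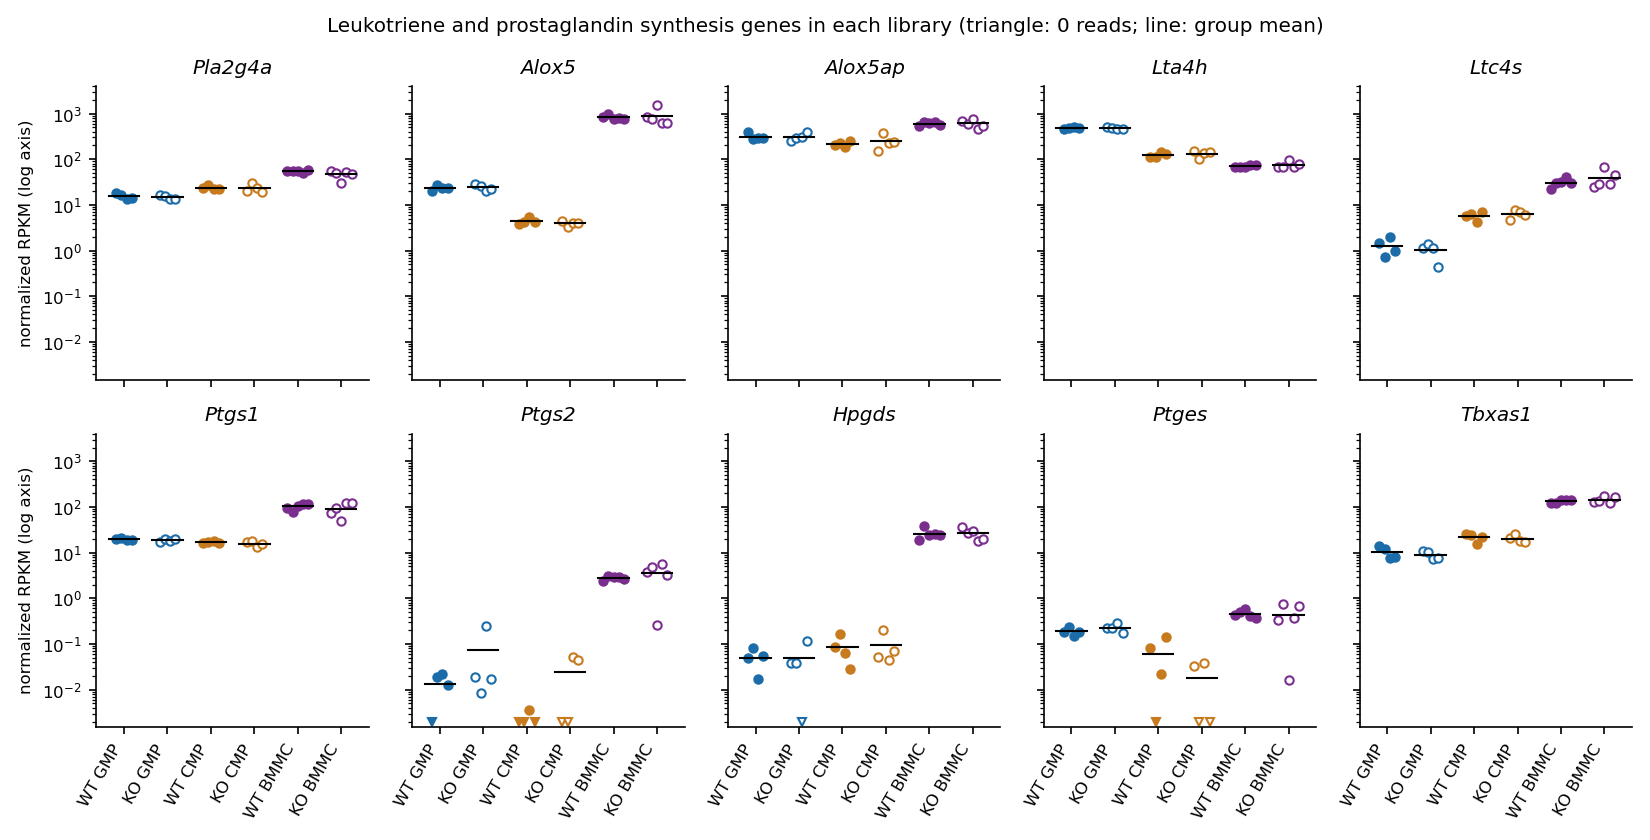
Normalized RPKM (log axis) of the 10 genes in each library, by group on the horizontal axis, with filled points for WT, open points for KO, triangles for libraries with 0 reads, and a line at the group mean. Alox5, Hpgds and Ptgs2 were highest in BMMCs, Lta4h was highest in GMPs, and WT and KO points overlapped for each gene in each cell type.

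The leukotriene branch differed between the sorted progenitors. Alox5, the first enzyme of the branch, was higher in GMPs than in CMPs, and so was Lta4h, the leukotriene B4 enzyme, while Ltc4s, the leukotriene C4 enzyme, and Tbxas1, the thromboxane enzyme, were lower. A gene was called changed at an adjusted p under 0.01 and a change of at least 2-fold in edgeR's quasi-likelihood test, with the Benjamini-Hochberg adjustment over all genes tested. Of the 9 members tested in WT mice, 2 were called higher in GMPs, where 6.28% of all tested genes were, and 2 lower, where 6.53% were. In KO mice the same 4 members of 9 were called, 2 higher (4.04% of all tested genes) and 2 lower (4.38%). Ptgs2 had too few reads to be tested. The median log2 fold change of the members tested was 0.22 in WT mice and 0.27 in KO mice, beside -0.02 and -0.03 for all genes tested. In sorted bulk samples, fewer cells of a type and less RNA per cell cannot be told apart. GMP libraries also held more reads of neutrophil markers (summed normalized RPKM 818 to 5157, against 10.3 to 80.2 in CMPs), basophil markers (1637 to 2499, against 23.4 to 75.3) and eosinophil markers (1224 to 4441, against 8.99 to 89.99), and fewer of platelet markers (42.1 to 113, against 822 to 2859) and erythroid markers (28.6 to 59.5, against 654 to 1262). Mast cell markers were also higher in GMPs (465 to 703, against 150 to 174), as were macrophage markers (49.7 to 88.3, against 26.4 to 38.7). Dendritic cell markers overlapped (38.8 to 77.04 in GMPs, against 38.5 to 119 in CMPs). The part of all these cells in the differences between GMPs and CMPs was not tested.

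Alox5 (ENSMUSG00000025701) is a gene of chromosome 6 (GRCm38, 116410077 to 116461178, reverse strand). Its normalized RPKM in the 4 WT GMP libraries was 19.7, 26.8, 23.1 and 23.4. In the WT CMP libraries it was 3.84, 4.30, 5.53 and 4.28. Each GMP library was above each CMP library, a 5.25-fold difference (log2 fold change 2.39, standard error 0.16, adjusted p = 3.00e-06, edgeR). In KO mice the GMP values were 28.8, 26.5, 19.8 and 22.6 and the CMP values 4.43, 3.27, 3.92 and 4.09, and again no CMP library reached a GMP library (log2 fold change 2.67, standard error 0.18, adjusted p = 4.52e-05, edgeR).

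BMMCs held far more Alox5 RNA than the progenitors. The WT BMMC libraries were at 837, 952, 775, 815 and 762 normalized RPKM, which placed Alox5 at rank 36 of 23848 genes with a read in that group. In WT GMPs the gene stood at rank 3268 and in WT CMPs at rank 7919. WT BMMCs were 33.4-fold above WT GMPs (log2 fold change 5.06, standard error 0.13, adjusted p = 2.95e-11, edgeR) and 173-fold above WT CMPs (7.44, standard error 0.16, adjusted p = 4.43e-12). The KO BMMC libraries were at 852, 751, 1537, 635 and 609, and library 3 was the highest of all 10 BMMC libraries. Between BMMCs and progenitors, cell type, culture, sex and sequencing run changed together and cannot be told apart, here and in all comparisons with BMMCs given below.

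Alox5ap (ENSMUSG00000060063, chromosome 5, forward strand, 149264767 to 149288153) encodes FLAP, the membrane protein that presents arachidonic acid to 5-lipoxygenase. It was abundant in all 3 cell types. It ranged from 276 to 393 normalized RPKM in WT GMPs, from 182 to 254 in WT CMPs and from 530 to 667 in WT BMMCs. The groups did not overlap, but the differences were smaller than those of Alox5. WT BMMCs exceeded WT GMPs by a log2 fold change of 0.84 (standard error 0.12, adjusted p = 4.32e-05, edgeR), under the 2-fold limit, and WT CMPs by 1.37 (standard error 0.12, adjusted p = 2.01e-07). WT GMPs exceeded WT CMPs by 0.55 (standard error 0.14), which missed the threshold (adjusted p = 0.0133). In KO mice the values were 254 to 391 in GMPs, 149 to 376 in CMPs and 452 to 756 in BMMCs. The highest KO CMP value, in library 2, lay within the GMP range, and with that library left out KO GMPs and KO CMPs still did not pass (log2 fold change 0.61, adjusted p = 0.0621, edgeR, against 0.37 and 0.303 with it). The levels of Alox5 and its partner thus stood in different proportions. In a ratio chosen after the values were seen, Alox5ap was between 10.3 and 19.9 times as high as Alox5 per library in WT GMPs and between 32.9 and 59.4 times as high in WT CMPs, while in WT BMMCs Alox5 was between 1.27 and 1.58 times as high as Alox5ap.

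Lta4h (ENSMUSG00000015889, chromosome 10, forward strand, 93453411 to 93484875) was highest in GMPs and lowest in BMMCs, where Alox5 and Alox5ap were highest. Its enzyme completes the synthesis of leukotriene B4. It was at 466, 483, 504 and 470 normalized RPKM in WT GMPs and at 113, 112, 142 and 127 in WT CMPs. In WT BMMCs it was at 66.2, 68.9, 66.8, 76.5 and 73.8. The 3 cell types did not overlap, and GMPs stood above CMPs by a log2 fold change of 1.98 (standard error 0.12, adjusted p = 1.45e-06, edgeR). BMMCs were 7.28-fold lower than GMPs (log2 fold change -2.86, standard error 0.08, adjusted p = 4.49e-11). Against CMPs the change was -0.90 (standard error 0.09, adjusted p = 1.21e-06), which did not reach 2-fold. KO libraries had the same order, with 466 to 499 in GMPs, 100.004 to 150 in CMPs and 66.0 to 94.96 in BMMCs. Lta4h was the only member called lower in BMMCs than in a progenitor, in both genotypes.

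Ltc4s (ENSMUSG00000020377, chromosome 11, reverse strand, 50236461 to 50238616) competes with Lta4h for leukotriene A4. Its normalized RPKM was 1.47, 0.709, 1.97 and 0.973 in WT GMPs, from 28 to 65 reads, and 5.66, 6.35, 4.14 and 6.81 in WT CMPs, from 171 to 213 reads. In WT BMMCs it was 22.2, 29.4, 31.5, 41.0 and 29.6. No 2 of these groups overlapped. In WT mice GMPs were 4.43-fold lower than CMPs (log2 fold change -2.15, standard error 0.33, adjusted p = 0.000667, edgeR), and in KO mice 5.99-fold lower (-2.58, standard error 0.36, adjusted p = 0.00118). BMMCs were 22.7-fold above GMPs (log2 fold change 4.502, standard error 0.29, adjusted p = 2.91e-08) and 5.03-fold above CMPs (2.33, standard error 0.20, adjusted p = 2.03e-07) in WT mice. A noncoding gene on the opposite strand, Gm26542, shares 268 exonic bases with the 1014 of Ltc4s. Its mean count was 22.8 in WT GMPs, 64.0 in WT CMPs and 9.80 in WT BMMCs. It was thus higher in CMPs than in GMPs as Ltc4s was, and its part in that difference was not tested. The kit marked the strand, but whether the counting used it is not given in the sources used here. As a ratio chosen after the values were seen, Lta4h was between 256 and 681 times as high as Ltc4s in WT GMPs and between 17.7 and 34.4 times as high in WT CMPs. In WT BMMCs it was between 1.86 and 2.99 times as high. In KO libraries this ratio was 346 to 1068 in GMPs, 12.7 to 32.7 in CMPs and 1.42 to 2.84 in BMMCs.

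Pla2g4a (ENSMUSG00000056220, chromosome 1, reverse strand, 149829618 to 149961290), which frees the substrate of both branches, was expressed in all groups. It ranged from 13.4 to 18.1 normalized RPKM in WT GMPs, from 21.8 to 27.9 in WT CMPs and from 51.1 to 56.9 in WT BMMCs. The 3 cell types did not overlap. GMPs were below CMPs by a log2 fold change of -0.60 (standard error 0.13, adjusted p = 0.00449, edgeR), under the 2-fold limit, and BMMCs were above GMPs by 1.73 (standard error 0.10, adjusted p = 1.69e-08) and above CMPs by 1.12 (standard error 0.10, adjusted p = 2.72e-07). In KO mice it ranged from 13.2 to 16.4 in GMPs, from 18.9 to 30.1 in CMPs and from 29.5 to 54.1 in BMMCs, and BMMCs exceeded CMPs by 0.90 (standard error 0.22, adjusted p = 0.00447), which did not reach 2-fold. Without KO BMMC library 3 this change was 1.05 and without KO CMP library 2 it was 1.07, and both passed.

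Of the 2 cyclooxygenases, Ptgs1 had the higher level in all 3 cell types. Ptgs1 (ENSMUSG00000047250, chromosome 2, forward strand, 36230426 to 36252272) ranged from 18.7 to 20.6 normalized RPKM in WT GMPs, from 16.3 to 17.9 in WT CMPs and from 76.2 to 117 in WT BMMCs. Between the 2 progenitors the change was 0.22 on the log2 scale (standard error 0.10, adjusted p = 0.0976, edgeR) and did not pass, and BMMCs were above both. Above GMPs they stood by 2.30 (standard error 0.13, adjusted p = 9.38e-09) and above CMPs by 2.51 (standard error 0.13, adjusted p = 2.47e-09). In KO mice the ranges were 16.8 to 19.9 in GMPs, 13.5 to 17.6 in CMPs and 49.2 to 122 in BMMCs.

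Ptgs2 (ENSMUSG00000032487, chromosome 1, forward strand, 150100031 to 150108227) was near the limit of detection in progenitors. WT CMP libraries held 0, 0, 1 and 0 reads and WT GMP libraries 0, 5, 5 and 3. A count of 0 allows up to 3 reads, or between 0.0583 and 0.0877 CPM in these libraries, and this covers counting error only. WT BMMC libraries were at 2.44, 3.03, 2.99, 2.90 and 2.66 normalized RPKM, from 229 to 332 reads, above all progenitor libraries. Over the pooled reads, WT BMMCs were 1908 times as high as WT CMPs, with an exact 95% interval for counting error of 342 to 75408 that rests on the single CMP read, and 167 times as high as WT GMPs, with an interval of 97.5 to 315. In edgeR, WT BMMCs stood above WT GMPs by 7.51 on the log2 scale (standard error 0.32, adjusted p = 9.21e-10). In KO mice, GMP libraries held 5, 2, 55 and 3 reads and CMP libraries 0, 0, 15 and 8, so that 1 library or a pair of libraries held most of the reads in each. KO BMMC libraries were at 3.76, 4.93, 0.262, 5.55 and 3.23 normalized RPKM, and library 3, with 20 reads, stood far below the others. Per length, Ptgs1 was between 25.1 and 44.1 times as high as Ptgs2 in WT BMMCs, another ratio chosen after the values were seen.

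Hpgds (ENSMUSG00000029919, chromosome 6, reverse strand, 65117293 to 65144908) separated BMMCs from both progenitors most fully among the synthases. WT GMP libraries were at 0.0489, 0.0808, 0.0170 and 0.0537 normalized RPKM and WT CMP libraries at 0.0864, 0.168, 0.0636 and 0.0282, on 3 to 30 reads. WT BMMC libraries were at 18.5, 38.3, 24.5, 25.1 and 24.5, on 1357 to 2646 reads. The 2 progenitors overlapped (log2 fold change -0.76, standard error 0.64, adjusted p = 0.364, edgeR), while BMMCs were above GMPs by a log2 fold change of 8.87 (standard error 0.33, adjusted p = 3.10e-10) and above CMPs by 8.10 (standard error 0.36, adjusted p = 4.55e-10). KO BMMC libraries were at 36.5, 27.4, 29.2, 18.2 and 20.3, and library 3 lay among the others.

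The other synthases of the branch followed in part. Tbxas1 (ENSMUSG00000029925, chromosome 6, forward strand, 38875404 to 39084585) ranged from 7.66 to 14.3 normalized RPKM in WT GMPs, from 15.6 to 26.2 in WT CMPs and from 123 to 145 in WT BMMCs. GMPs were below CMPs by a log2 fold change of -1.06 (standard error 0.22, adjusted p = 0.00408, edgeR) in WT mice and -1.11 (standard error 0.19, adjusted p = 0.00304) in KO mice. Both changes were near the 2-fold limit. The WT call was lost without WT GMP library 3 or 4 or WT CMP library 1, 2 or 4, and the KO call without KO GMP library 3 or 4 or KO CMP library 2. With each library left out, the log2 fold change ranged from -1.23 to -0.93 in WT mice and from -1.19 to -0.99 in KO mice. BMMCs were above GMPs by 3.60 (standard error 0.19, adjusted p = 6.36e-09) and above CMPs by 2.52 (standard error 0.15, adjusted p = 7.44e-09). Ptges (ENSMUSG00000050737, chromosome 2, reverse strand, 30889471 to 30929863), which makes prostaglandin E2, was low throughout. It ranged from 0.152 to 0.240 normalized RPKM in WT GMPs, from 0 to 0.141 in WT CMPs and from 0.372 to 0.572 in WT BMMCs, on no more than 53 reads in any of these libraries. WT BMMCs exceeded WT GMPs by a log2 fold change of 1.18 (standard error 0.24, adjusted p = 0.000623, edgeR). In KO BMMCs it ranged from 0.0160 to 0.752, with 1 read in library 3.

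Across the members, BMMCs were called higher than WT GMPs for 8 of 10, where 27.3% of all tested genes were, and lower for 1, where 24.4% were. Alox5ap was the exception. Macrophage markers summed to between 1179 and 1515 normalized RPKM in WT BMMCs, against 49.7 to 69.2 in WT GMPs and 26.4 to 35.2 in WT CMPs, and dendritic cell markers to between 888 and 1622, against 38.8 to 77.04 and 71.4 to 100.3. Platelet markers summed to between 843 and 1176 in WT BMMCs, above WT GMPs (44.7 to 113) but not above WT CMPs (822 to 1498). Neutrophil markers in WT BMMCs (41.8 to 180) were below WT GMPs (1511 to 3297) and above WT CMPs (10.3 to 31.3). So were basophil markers (457 to 835, against 1756 to 2158 and 27.8 to 58.9). Eosinophil markers (2.73 to 5.71) were below WT GMPs (1492 to 2421) and WT CMPs (8.99 to 37.8). Erythroid markers (43.98 to 51.9) overlapped WT GMPs (33.2 to 59.5) and were below WT CMPs (746 to 1262). The part of these cells in the levels of the members was not tested. Over WT CMPs, 9 of 10 were called higher (29.6% of all genes) and 0 lower (27.9%), and Lta4h was the exception. By DESeq2 and by limma voom 9 members were called in each of these comparisons as well. The median log2 fold change of the members was 2.95 over WT GMPs and 2.51 over WT CMPs, beside -0.0045 and -0.0056 for all genes tested. Setting Ptgs2 to the lower end of its interval could not move the CMP median, since it stayed above the middle members there. In KO mice, 7 were called higher in BMMCs than in GMPs (25.6% of all tested genes) and 1 lower (22.3%), with Ptges and Alox5ap not called. Against KO CMPs 8 were called higher (26.2%) and 0 lower (26.0%), with Lta4h and Pla2g4a not called. Of these, the call of Alox5ap was lost without KO CMP library 3 or 4 (log2 fold change 1.03 to 1.47 with each library left out) and that of Ptges without KO CMP library 2 or 4 (3.88 to 4.77, where it was tested). Without KO BMMC library 1, 2, 4 or 5 Ptges had too few reads to be tested, so that it was not called there either. Without KO BMMC library 3, 9 members were called in each of these KO comparisons. With an adjusted p under 0.05 and no limit on the fold, 10 of 10 members passed against CMPs in either genotype and against GMPs in WT mice.

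**Figure D2:**
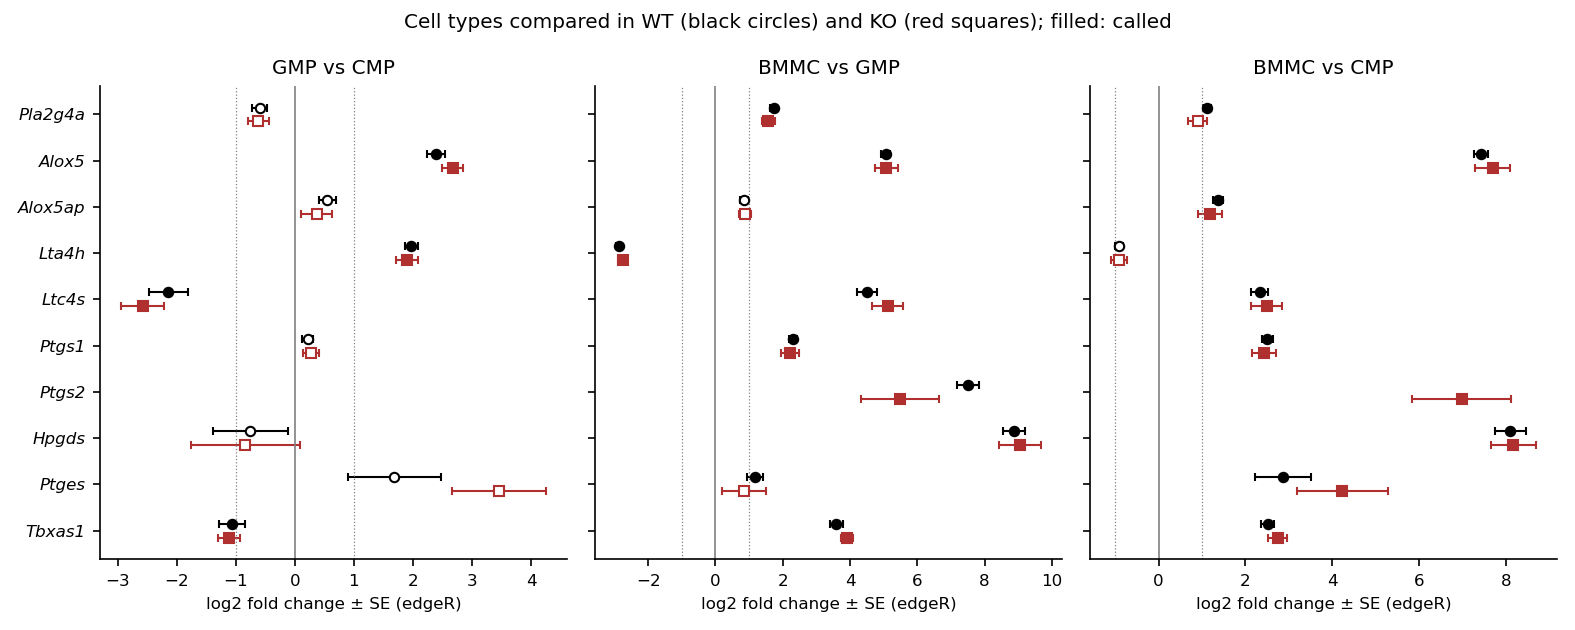
Log2 fold change with its standard error (edgeR) of each gene between cell types, in WT (black circles) and KO mice (red squares), filled where called, with dotted lines at a 2-fold change. Genes not tested and Ptgs2 in BMMCs against CMPs of WT mice, which rests on 1 CMP read, are left out. Alox5 and Lta4h were called higher and Ltc4s and Tbxas1 lower in GMPs than in CMPs, and Lta4h lies to the left of 0 in both BMMC panels.

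Which other genes had the pattern of Alox5 and Hpgds was described over the 6 group means, as log2 of normalized RPKM plus 1, centred per gene. Among 7798 other genes with a group mean of at least 10 normalized RPKM, the 5 closest to Alox5 were Cd200r3 (root mean square difference 0.17), Prkcb (0.25), Cpa3 (0.25), Csf2rb (0.35) and Lgals3 (0.45). Cpa3 encodes the granule carboxypeptidase of mast cells, Cd200r3 is a receptor of basophils and mast cells, and Csf2rb is the common beta chain of the interleukin-3 receptor family. Cpa3 was at 255 normalized RPKM in WT GMPs, 79.0 in WT CMPs and 12982 in WT BMMCs. Lgals3 was at 12.8, 3.70 and 1050 in these groups, and Prkcb at 3.12, 0.288 and 188. The BMMC libraries also held macrophage markers, and the part of macrophages in the levels of these genes was not tested. The 5 closest to Hpgds were Shtn1 (0.02), Ctsd (0.03), Eif2s3y (0.04), Nr4a1 (0.04) and Klra2 (0.07). Adding 1 flattens levels near 0, so this closeness does not mean an equal fold change. Ctsd was at 167 normalized RPKM in WT GMPs, 165 in WT CMPs and 4352 in WT BMMCs. Hpgds was at 0.0501, 0.0865 and 26.2 in the same groups. Eif2s3y is a gene of the Y chromosome, at 23.9 normalized RPKM in the WT BMMCs of male mice and 0 in the progenitors of female WT mice, so that closeness to Hpgds over these groups holds for sex as well as for cell type.

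**Figure D3:**
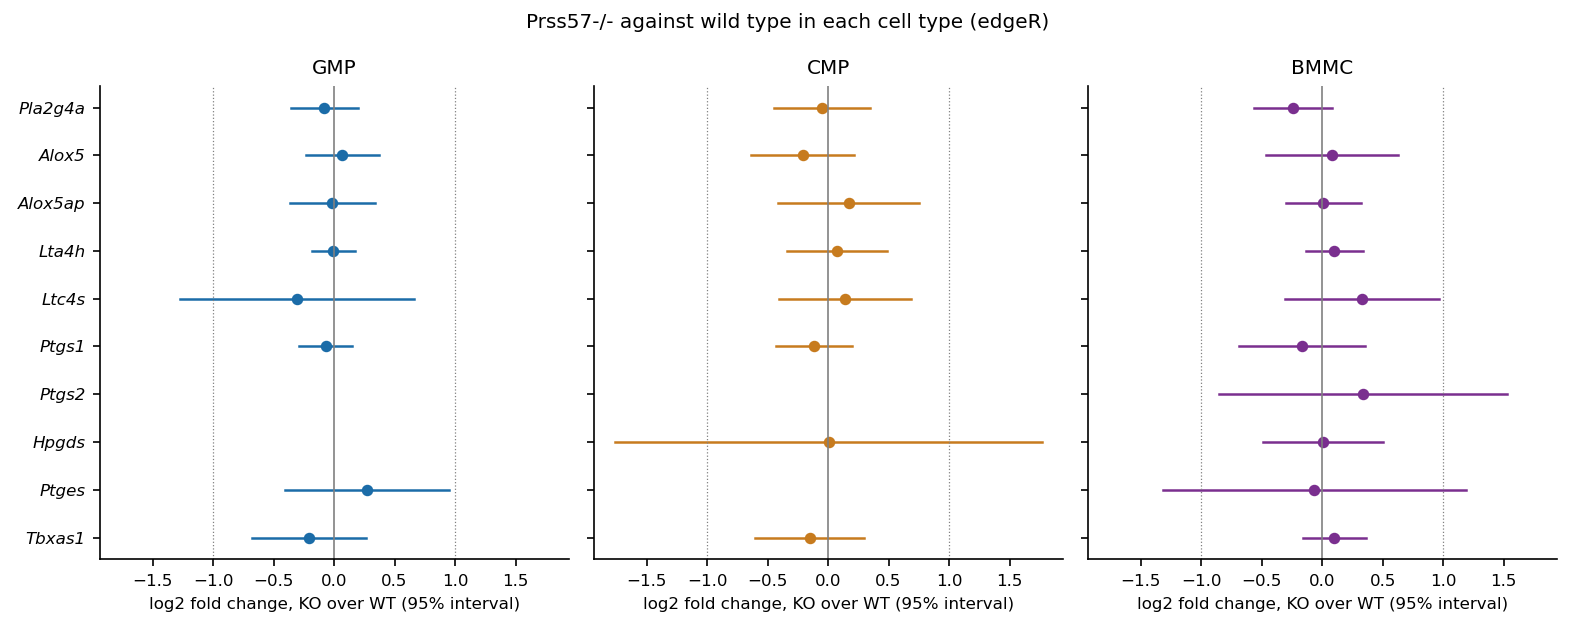
Log2 fold change of KO over WT in each cell type (points) with its 95% interval (lines) from edgeR, for the genes tested, with dotted lines at a 2-fold change. All intervals include 0, and those of Ptgs2 and Ptges in BMMCs and of Hpgds in CMPs are the widest.

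Loss of NSP4 changed none of the members past the threshold. In edgeR, 0 of 8 members were called in GMPs (0.00681% of all tested genes were called, 1 gene, Prss57), 0 of 8 in CMPs (0.00670%, again Prss57) and 0 of 10 in BMMCs (0%). None had an unadjusted p under 0.05 in any cell type, DESeq2 and limma voom called 0 as well, and the adjusted p of each member was 1.00. Hpgds and Ptgs2 in GMPs and Ptges and Ptgs2 in CMPs had too few reads to be tested. Over all genes, 332 had an unadjusted p under 0.05 in BMMCs.

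The intervals set how large a change could have been missed. For Alox5 the log2 fold change of KO over WT was 0.07 in GMPs (95% interval -0.23 to 0.37), -0.21 in CMPs (-0.64 to 0.21) and 0.08 in BMMCs (-0.46 to 0.62). For Lta4h it was 0.10 in BMMCs (-0.13 to 0.33), and in GMPs the interval was -0.18 to 0.17. A 2-fold change lies outside these intervals. For Ltc4s in GMPs the log2 fold change was -0.31 and the interval, -1.28 to 0.66, included a 2-fold decrease. In BMMCs, Hpgds was at 26.2 ± 7.29 normalized RPKM (SD, n = 5) in WT and at 26.3 ± 7.34 (SD, n = 5) in KO, and the interval was -0.49 to 0.50. The intervals of Ptgs2 (-0.86 to 1.53) and Ptges (-1.32 to 1.18) in BMMCs included 2-fold changes in at least 1 direction. The effects of genotype in GMPs and CMPs were also compared as an interaction, which was called for 0 of the 9 members tested (0% of 15900 genes), with an unadjusted p under 0.05 for 0 members, and DESeq2 called 0 genes. The interaction of Ptges was 1.78 on the log2 scale (standard error 1.22) on few reads, and those of the others lay between -0.44 and 0.27.

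**Figure D4:**
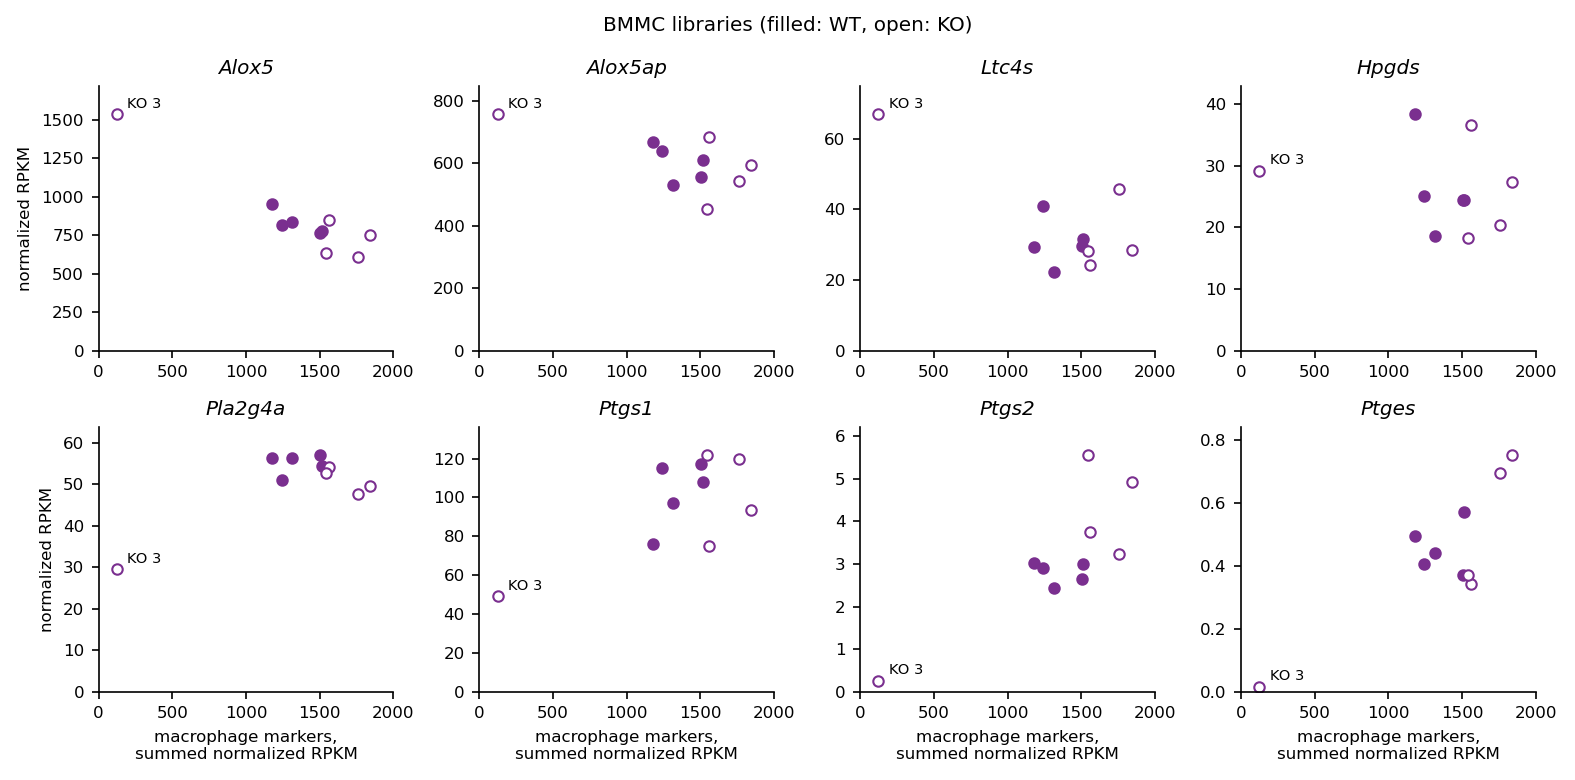
Normalized RPKM of 8 of the genes in each BMMC library (vertical axes, from 0) against the summed normalized RPKM of 8 macrophage markers (horizontal axes), with filled points for WT and open points for KO. KO library 3 has the lowest marker sum, 124, and is the highest library for Alox5, Alox5ap and Ltc4s and the lowest for Pla2g4a, Ptgs1, Ptgs2 and Ptges.

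KO BMMC library 3 differed from the other KO BMMC libraries in most members. Against the other 4 KO libraries it was higher in Alox5 (1537, against 609 to 852 normalized RPKM), Alox5ap (756, against 452 to 685), Ltc4s (66.9, against 24.2 to 45.8), Lta4h (94.96, against 66.0 to 80.3) and Tbxas1 (178, against 125 to 165). It was lower in Pla2g4a (29.5, against 47.7 to 54.1), Ptgs1 (49.2, against 75.1 to 122), Ptgs2 (0.262, against 3.23 to 5.55) and Ptges (0.0160, against 0.343 to 0.752). In Hpgds it lay within their range. This library also had the lowest sums of macrophage and dendritic cell markers of all BMMC libraries, and the highest of mast cell markers, as given above. Erythroid markers were highest too (summed normalized RPKM 169, against 31.3 to 51.9 in the other BMMC libraries). So were granulocyte-macrophage progenitor markers (1514, against 891 to 1415) and eosinophil markers (6.99, against 2.73 to 5.71). Basophil markers (338.5, against 457 to 835) and neutrophil markers (25.3, against 41.8 to 180) were lowest, and platelet markers lay within the range. The part of other cells in the culture in these levels was not tested. Without library 3, the log2 fold change of KO over WT was -0.22 for Alox5, -0.08 for Alox5ap, -0.04 for Hpgds and 0.23 for Ptges. Each was of the opposite sign to the value with the library, and 0 members were called. For Ltc4s the change was 0.04 without library 3 and 0.33 with it. Leaving out other single BMMC libraries also turned the sign for Alox5ap, Hpgds and Ptges, while for Alox5 library 3 was the only library that did so. Over all genes 1031 then had an unadjusted p under 0.05, and 0 were called.

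Ptgs2 and Pla2g4a also depended on this library. Without it, all 4 remaining KO BMMC libraries were above the 5 WT libraries in Ptgs2 (3.23 to 5.55, against 2.44 to 3.03 normalized RPKM). Library 3, itself the lowest BMMC library in Ptgs2 (0.262), was left out after the values were seen. An exact two-sided permutation test then gave p = 0.0159, unadjusted and the smallest p that 5 libraries against 4 allow. The log2 fold change was 0.63 with an adjusted p of 0.382 in edgeR, which did not pass. With all 5 KO libraries the same permutation test gave p = 0.421. Without library 3, the KO libraries were also all above the WT libraries in macrophage markers (summed normalized RPKM 1543 to 1842, against 1179 to 1515). The part of macrophages in the Ptgs2 difference was not tested. Pla2g4a was at 55.0 ± 2.38 normalized RPKM (SD, n = 5) in WT BMMCs and 46.7 ± 9.96 (SD, n = 5) in KO BMMCs. The exact two-sided permutation test gave p = 0.0317, unadjusted among 30 such tests of a genotype difference, and p = 0.0635 without library 3, where the KO mean was 51.0. In edgeR the change was -0.24 on the log2 scale (standard error 0.14, adjusted p = 1.00).

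Other genes of the pathway were described from 52 genes in 7 role groups. Of these, 36 were tested in GMPs, 34 in CMPs and 32 in BMMCs for a difference between the genotypes, and 0 were called in each, with an unadjusted p under 0.05 for 0, 0 and 1 of them. In WT mice 9 were called higher and 6 lower in GMPs than in CMPs, of 37 tested (6.28% and 6.53% of all tested genes). Against WT GMPs 13 were called higher and 8 lower in BMMCs, of 36, where 27.3% and 24.4% of all tested genes were. Against WT CMPs 17 were called higher and 11 lower, of 37, where 29.6% and 27.9% were. In the comparisons with BMMCs, the counts of lower genes were near the shares over all genes. The counts of higher genes, and both counts between GMPs and CMPs, were above the shares. The median log2 fold change of these pathway genes was -0.15 in GMPs over CMPs, against 0.22 for the 9 members tested. In BMMCs it was -0.02 over GMPs and 0.34 over CMPs, against 2.95 and 2.51 for the 10 members tested.

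Of 5 leukotriene receptors listed, 4 were tested, and 3 were called higher and 0 lower in WT BMMCs than in WT GMPs, where 27.3% and 24.4% of all genes were. Cysltr1, the main receptor for cysteinyl leukotrienes, rose from 0.269 ± 0.0450 normalized RPKM (SD, n = 4) in WT GMPs to 4.52 ± 1.04 (SD, n = 5) in WT BMMCs (log2 fold change 3.97, standard error 0.21, adjusted p = 4.94e-09, edgeR). Ltb4r1, the high-affinity leukotriene B4 receptor, was at 78.5 normalized RPKM in WT GMPs, 73.3 in WT BMMCs and 10.1 in WT CMPs, and it was called higher in GMPs than in CMPs (2.98, standard error 0.18, adjusted p = 1.73e-06). Of 9 prostanoid receptors listed, 6 were tested, and 4 were called higher and 1 lower in WT BMMCs than in WT GMPs. Ptger3, a prostaglandin E2 receptor, was at 43.4 normalized RPKM in WT BMMCs, 1.95 in WT GMPs and 6.86 in WT CMPs, and Ptgir, the prostacyclin receptor, at 34.4, 1.46 and 0.316. The thromboxane receptor Tbxa2r went the other way, with 9.001 in WT CMPs, 0.339 in WT GMPs and 0.0224 in WT BMMCs, the last on no more than 2 reads per library. CMPs, where Tbxa2r was highest, also had the highest sums of platelet markers among the progenitors, and their part in its level was not tested.

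The other role groups were small, and their counts are to be read against the same shares, 27.3% higher and 24.4% lower in WT BMMCs than in WT GMPs. Of 5 tested genes for glutathione-dependent leukotriene enzymes and cysteinyl leukotriene processing, 1 was called higher, Dpep2, and 2 lower, Mgst2 and Mgst3 (log2 fold change -1.64), both of the glutathione-dependent kind. Dpep2, a dipeptidase that turns leukotriene D4 into leukotriene E4, was at 61.9 ± 9.32 normalized RPKM (SD, n = 5) in WT BMMCs and 0.333 in WT GMPs (log2 fold change 7.44, standard error 0.22, adjusted p = 5.45e-11, edgeR). Mgst2, which can also form leukotriene C4, fell from 104 in WT GMPs to 9.89 in WT BMMCs (-3.48, standard error 0.27, adjusted p = 1.50e-07). In arachidonic acid release 1 of 6 genes was higher and 0 lower. It was Mgll, monoacylglycerol lipase, at 37.8 in WT BMMCs and 0.347 in WT GMPs. Of the other prostanoid synthases, 1 of 6 was higher (Cbr3, log2 fold change 2.36) and 2 lower, Ptges2 (-1.41) and Ptgds. Ptgds, the other prostaglandin D synthase, had 0 reads in WT BMMCs and was at least 6.86-fold higher in WT GMPs, a bound set by 3 counts per BMMC library. Of 4 tested genes for lipoxygenases and a 5-lipoxygenase partner, the lipoxygenase Alox8 (2.48) and the partner Cotl1 (1.14) were called higher and the lipoxygenase Alox12 (-2.98) lower. Alox15 was at 3.10 normalized RPKM in WT GMPs, 0.0126 in WT CMPs and 2.50 in WT BMMCs, and Alox8 at 0.356, 0.00754 and 2.12. Of 5 transport and breakdown genes 1 was higher and 2 lower, with Abcc1, which exports leukotriene C4, at 9.58 in WT GMPs, 7.56 in WT CMPs and 27.4 in WT BMMCs (log2 fold change over GMPs 1.42, standard error 0.12, adjusted p = 3.19e-07).

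**Figure D5:**
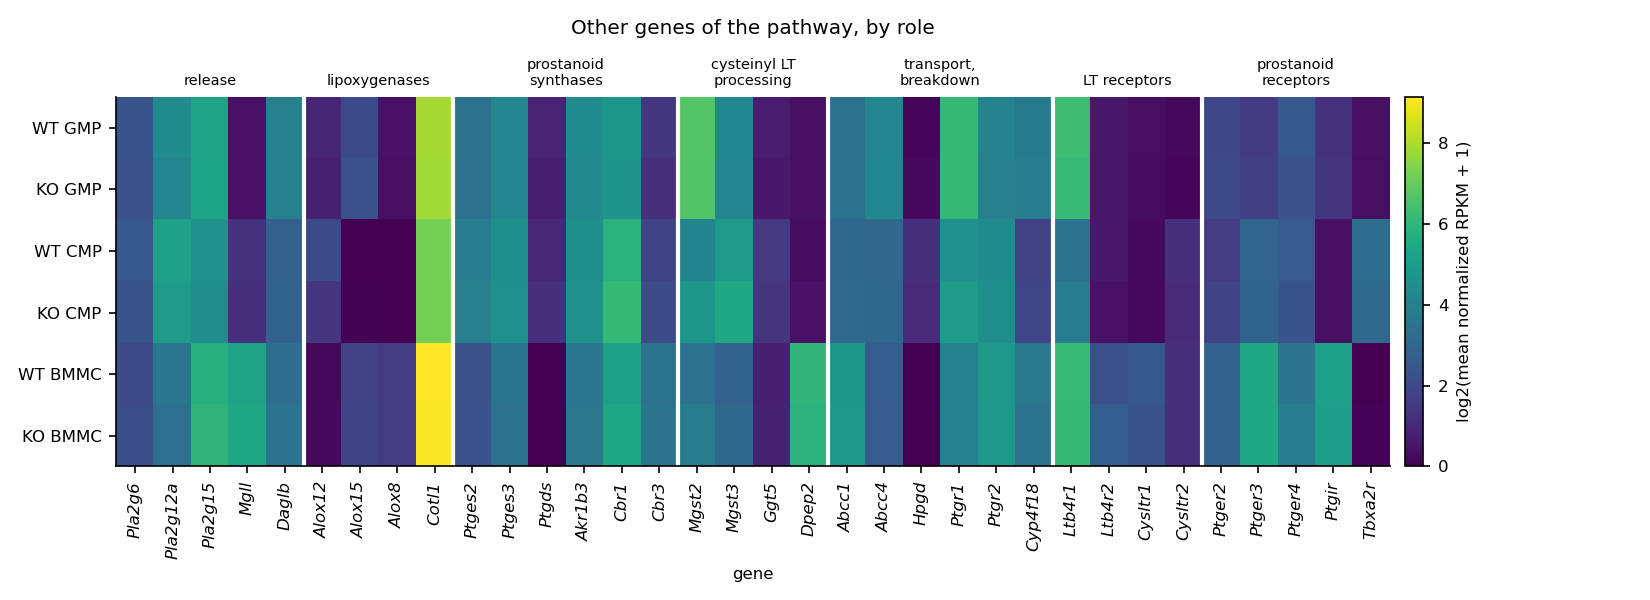
Log2 of the mean normalized RPKM plus 1 in each group (rows) for the 34 other pathway genes with a group mean of at least 1 normalized RPKM (columns), arranged by role. Dpep2, Mgll, Ptger3 and Ptgir were brighter in both BMMC groups than in the progenitors, and Mgst2 and Ptgr1 were brightest in GMPs.

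KO BMMC library 3 also stood apart in these genes. Of the 29 with a mean of at least 1 normalized RPKM in a BMMC group, it was below all other BMMC libraries for 16, above all for 5 and within their range for 8. Dpep2 was at 5.67 normalized RPKM there, against 56.3 to 78.9 in the other KO libraries and 49.4 to 73.2 in WT. Mgll was at 2.81, against 38.7 to 75.8 and 28.3 to 45.6, and Cysltr1 at 0.318, against 3.52 to 6.05 and 3.57 to 5.98. The receptor Ltb4r2 was at 15.5, against 2.51 to 3.81 in the other KO libraries and 2.83 to 4.26 in WT.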

How the data were processed

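RNA of 26 libraries was sequenced with a stranded total RNA kit and single-end reads of 50 bases. Per the study's methods, the authors used HTSeqGenie 4.0.1 with the aligner GSNAP and the GRCm38 genome, and deposited for each library the count of uniquely aligned reads within the exons of each gene. They also deposited normalized RPKM values, which the authors made from the counts with a size factor per library. Whether the counting used the strand is not given in the sources used here.

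Symbols were assigned to 52403 of the 52636 Ensembl identifiers from the reference annotation. Counts were tested with edgeR 4.0.16 (R 4.3.3), using TMM scaling, filterByExpr, the robust quasi-likelihood fit and the Benjamini-Hochberg adjustment over all genes tested. Calls needed at least a 2-fold change with an adjusted p under 0.01, the limits of the study, whose own test was limma voom. Each fit held only the groups compared, and the interaction held the 16 progenitor libraries. Single members were also tested on normalized RPKM by permuting the libraries exactly (two-sided), which cannot give a p below 0.0286 with 4 libraries in each group or 0.00794 with 5. The fits were tested on simulated data with 200 changed genes. Alternatives were DESeq2 1.42.0, limma 3.58.1 voom, RLE scaling, no low-count filter, a replicate block, an adjusted p under 0.05 without a fold limit, and each library left out in turn. The permutation tests without KO BMMC library 3 or KO CMP library 2 were chosen after seeing the data.

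The members, pathway genes and marker lists were chosen with earlier results of these data known. All members are named. Of the other pathway genes, up to 3 per role group and comparison could be named, those with the largest change among the genes called. Other levels and the library comparison were chosen after their values were seen. Libraries are taken as separate samples from their labels. Where they do not come from separate mice or cultures, p-values measure technical spread only.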

Additional observations from a re-analysis of the deposited data

Results flagged for a closer look

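In 5 of 60 sets of libraries (10 genes in 6 groups), 1 library lay far from the others of its group by Dixon's test at the 95% level. For independent sets of normally distributed values, chance flags about 1 in 20, or 3 of 60. The sets here share libraries, and some rest on few reads, so 5 cannot be weighed against that number. Alox5 was at 1537 normalized RPKM in KO BMMC library 3, against 609 to 852 in the other 4, and Pla2g4a at 29.5 in the same library, against 47.7 to 54.1. This is the library with the low macrophage and dendritic cell marker sums. The part of other cells was not tested. Ptgs2 was at 0.249 normalized RPKM in KO GMP library 3, on 55 reads, against 0.0085 to 0.0186 in the other 3, on 2 to 5 reads. In WT CMP library 3 Ptgs2 was at 0.00355, on 1 read, where the others held 0. Hpgds was at 0.205 in KO CMP library 2, on 20 reads, against 0.0439 to 0.0707 in the others, on 10 to 12 reads, and this library also had the highest sum of normalized RPKM over all genes among the progenitors.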

How the results depend on the processing

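Of the results for single members under the alternatives, 1228 kept their direction and their side of the threshold, 61 changed sign, 15 lost and 5 gained a call, and no difference between the genotypes passed under any of them. The changes of sign were among the differences between the genotypes and their interaction. In GMPs, leaving out single libraries gave KO over WT values (log2) of both signs for Alox5ap (-0.14 to 0.12), Pla2g4a (-0.13 to 0.0057), Lta4h (-0.017 to 0.027) and Alox5 (-0.0078 to 0.16). In CMPs, leaving out single libraries gave KO over WT values (log2) of both signs for Pla2g4a (-0.19 to 0.039), Ltc4s (-0.014 to 0.24), Hpgds (-0.67 to 0.53), Lta4h (-0.015 to 0.19) and Alox5ap (-0.089 to 0.33). In BMMCs, leaving out single libraries gave KO over WT values (log2) of both signs for Alox5ap (-0.084 to 0.099), Hpgds (-0.13 to 0.18), Ptges (-0.34 to 0.23) and Alox5 (-0.22 to 0.19). The interaction did so for Tbxas1 (-0.18 to 0.12), Pla2g4a (-0.12 to 0.10), Hpgds (-0.96 to 0.56), Lta4h (-0.20 to 0.0064), Alox5ap (-0.35 to 0.061) and Ptgs1 (-0.020 to 0.11). Without the low-count filter the KO over WT value was 0.0014 for Lta4h in GMPs, -0.0020 for Hpgds in CMPs and -0.0016 for Hpgds in BMMCs, and by limma voom it was -0.13 for Hpgds in CMPs and -0.058 for Ptgs2 in BMMCs. DESeq2 called 2 genes between the genotypes in GMPs, 3 in CMPs and 2156 between KO GMPs and KO CMPs, against 1, 1 and 1259 in edgeR. With an adjusted p under 0.05 and no limit on the fold, 2 genes passed between the genotypes in GMPs, 5664 between WT GMPs and CMPs, 3222 between KO GMPs and CMPs, and 12030 (WT) and 11032 (KO) between BMMCs and GMPs. Leaving out single libraries gave 1 to 2 genes between the genotypes in GMPs and 785 to 2266 between KO GMPs and KO CMPs. The cause of these changes was not tested.

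Libraries of a group share replicate numbers with the other groups. The main fits did not pair them, since in no comparison did every same-numbered pair correlate above 0.1 (mean r from -0.089 to 0.25). That rule cannot exclude pairing. Between GMPs and CMPs the mean r of same-numbered libraries was 0.17 in WT mice (-0.076 for different numbers) and 0.25 in KO mice (-0.086). Between the genotypes in CMPs it was 0.22 (-0.086), and between BMMCs and GMPs in WT mice 0.056 (-0.015). In the other comparisons it was below the mean for different numbers. Whether same-numbered libraries share a mouse was not tested. With the replicate number as a block, the log2 fold change of KO over WT in BMMCs was -0.014 for Alox5, -0.0083 for Alox5ap and -0.0055 for Hpgds, and the calls of Ptgs2 between KO BMMCs and KO GMPs (6.45, adjusted p = 0.0288, edgeR) and of Alox5ap between KO BMMCs and KO CMPs (1.28, adjusted p = 0.0134) were lost. In the latter comparison Ptges had too few reads to be tested with the block, so that 6 members were called, against 8 without it. Ptges passed between KO GMPs and KO CMPs by DESeq2 (3.50) and limma voom (4.21), and missed between KO BMMCs and KO CMPs by limma voom (4.37, adjusted p = 0.0123). Depth limits Ptgs2, Ptges and Hpgds in progenitors, where libraries held from 0 to 55 reads.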
